A study of Mus musculus with 12 samples.

Results

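RNA of extracellular vesicles from mutant-labelled mouse lung mesenchymal cells was set against RNA of vesicles from wild-type cells. Extracellular vesicles are membrane particles that cells release into their medium. Per the labels' protocols the medium was collected once the cells had been cultured for 48 hours. The mutant-labelled group held 2 libraries, with the titled genotype ColcreER; Tbx4flox/flox, and the wild-type group held 4, all from adult C57BL/6 mice. CreER is a Cre recombinase that tamoxifen switches on, and a floxed allele is one that Cre can delete. By the titles a Col promoter drove Cre and the T-box transcription factor gene Tbx4 was floxed. The design text of the series names another genotype, Tbx4creER; Ghrflox/flox, in which Tbx4 would be the driver and the growth hormone receptor gene Ghr the floxed gene. Both were possible from the sources at hand, so the libraries are called mutant-labelled throughout. Under either genotype only cells in which the driver was active could lose the gene. How many animals or cultures stand behind a library is not given in the sources used here, so a p-value measures only the spread between these libraries, which may be technical.

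The genes compared were those with at least 1 RPKM (reads for each kilobase of exon and each megaread in genes) in at least 2 of the 6 libraries. They numbered 7615 of the 8096 genes listed for vesicles, and of 21950 genes listed for vesicles or whole lung. A log2 difference is mutant-labelled minus wild type on the log2(RPKM + 1) scale, fitted with limma over all 7615 genes, and its standard error (SE) is limma's. The scale understates differences of genes with low values.

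Vesicles carry messenger RNA of the cell that made them, in fragments and whole copies, and shield it from enzymes of the medium. Lung mesenchyme holds fibroblasts of the alveolar wall, fibroblasts of the sheath around airways and vessels, smooth muscle cells and pericytes. These cells build the matrix and send growth factors such as FGF, BMP and Wnt ligands to the epithelium. Macrophages are the phagocytes of the lung. They also attach to culture plastic and release vesicles, so their RNA can appear in a vesicle preparation of cultured lung cells.

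The mutant-labelled libraries were shallower, and library 1 of them stood apart. They held 1.745 and 1.676 M reads in genes (M, megareads), against 4.2 to 5.406 M in wild-type libraries. Of the 7615 genes, 1540 were at 0 in mutant-labelled library 1 and 560 in mutant-labelled library 2, against 339 to 529 in wild-type libraries. In mutant-labelled library 1, 34 genes were at 0 that had at least 10 RPKM in each of the other 5 libraries. Such genes numbered 0 in mutant-labelled library 2 and 1 over all wild-type libraries. Across genes the mutant-labelled pair correlated at 0.42 (Spearman), wild-type pairs at 0.59 to 0.68, and mutant-labelled library 2 with wild-type libraries at 0.56 to 0.6. Mutant-labelled library 1 correlated with wild-type libraries at 0.36 to 0.43. List medians are therefore given with and without it. The Y-linked gene Eif2s3y stood at 0.138 and 0.143 RPKM in mutant-labelled libraries, against 52.6, 35.2, 0.115 and 0 RPKM in wild-type libraries, so wild-type libraries 1 and 2 alone held male RNA.

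Some defining transcripts of mesenchyme were abundant in every library, and others were not. In mutant-labelled library 1 the fibroblast gene Dcn stood at 0.55 RPKM, and Dpt and Mfap4 at 0. Of smooth muscle and myofibroblast markers 16 of 17 were listed. Listed were also 8 of 16 alveolar fibroblast, 8 of 14 adventitial fibroblast and 4 of 10 pericyte markers. Vim, the intermediate filament of mesenchymal cells, stood at 448 and 700.7 RPKM in mutant-labelled libraries, against 1157, 808.3, 494.4 and 554.8 RPKM in wild-type libraries. Grem1, a secreted BMP antagonist, stood at 735 and 6067 RPKM against 2573 to 6762 RPKM, so mutant-labelled library 1 lay far below the rest. The smooth muscle actin gene Acta2 showed the same order, at 203 and 1537 RPKM against 739.2 to 1293 RPKM. Sparc, a collagen-binding matricellular protein, stood at 832.7 and 1773 RPKM against 1340 to 2022 RPKM. The collagen I genes were modest, with Col1a1 at 16.6 and 41.2 RPKM against 18.4 to 31.3 RPKM. Markers of other lung cells were mostly not listed. Of 19 epithelial markers 1 was listed, the podoplanin gene Pdpn, and Sftpc and Epcam were not. Of 17 endothelial markers 3 were listed, without Pecam1 and Cdh5. No marker of B cells or of red cells was listed, and of T and natural killer cell markers 1 was. Macrophage and monocyte markers were the exception, with 24 of 29 listed. Tbx4, Tcf21 and Foxf1, transcription factors of lung mesenchyme, were not listed in vesicles, so the floxed gene of the titles cannot be followed in them.

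No gene passed the test. limma called 0 of the 7615 genes at an adjusted p of 0.05 (0% of those tested), with a smallest adjusted p of 0.229. The count test limma-voom on recovered whole reads called 1, Fat4 (adjusted p = 0.0202). At an unadjusted p of 0.05 limma on log2(RPKM + 1) took 398 genes that were higher in mutant-labelled vesicles (5.23% of those tested) and 383 that were lower (5.03%), and limma-voom took 626, of which 539 were higher. The groups did not overlap in 752 genes that were higher (9.88%) and in 757 that were lower (9.94%). The median SE was 0.99, so a typical gene would have to differ several-fold to stand out. The median difference was -0.14, and 46.0% of genes lay above 0. Without mutant-labelled library 1 limma called 0 genes. At an unadjusted p of 0.05 that fit took 354 higher (4.65%) and 142 lower (1.86%) genes, 53.2% of genes lay above 0, and 25.4% were higher and 16.9% lower without overlap. Without mutant-labelled library 2 it called 253, of which 63 were higher. That second fit rests on mutant-labelled library 1 alone and assumes that it varied like the wild-type libraries. The list of genes was itself shaped by level: in each of the 8096 genes the larger group mean was at least 2.003 RPKM, and in 1393 of them the mutant-labelled mean alone reached 2. A gene listed through 1 group only had to differ, and counts of listed genes are to be read with this. Because nothing passed, values and their order are given, and no gene is called changed.

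**Figure D1:**
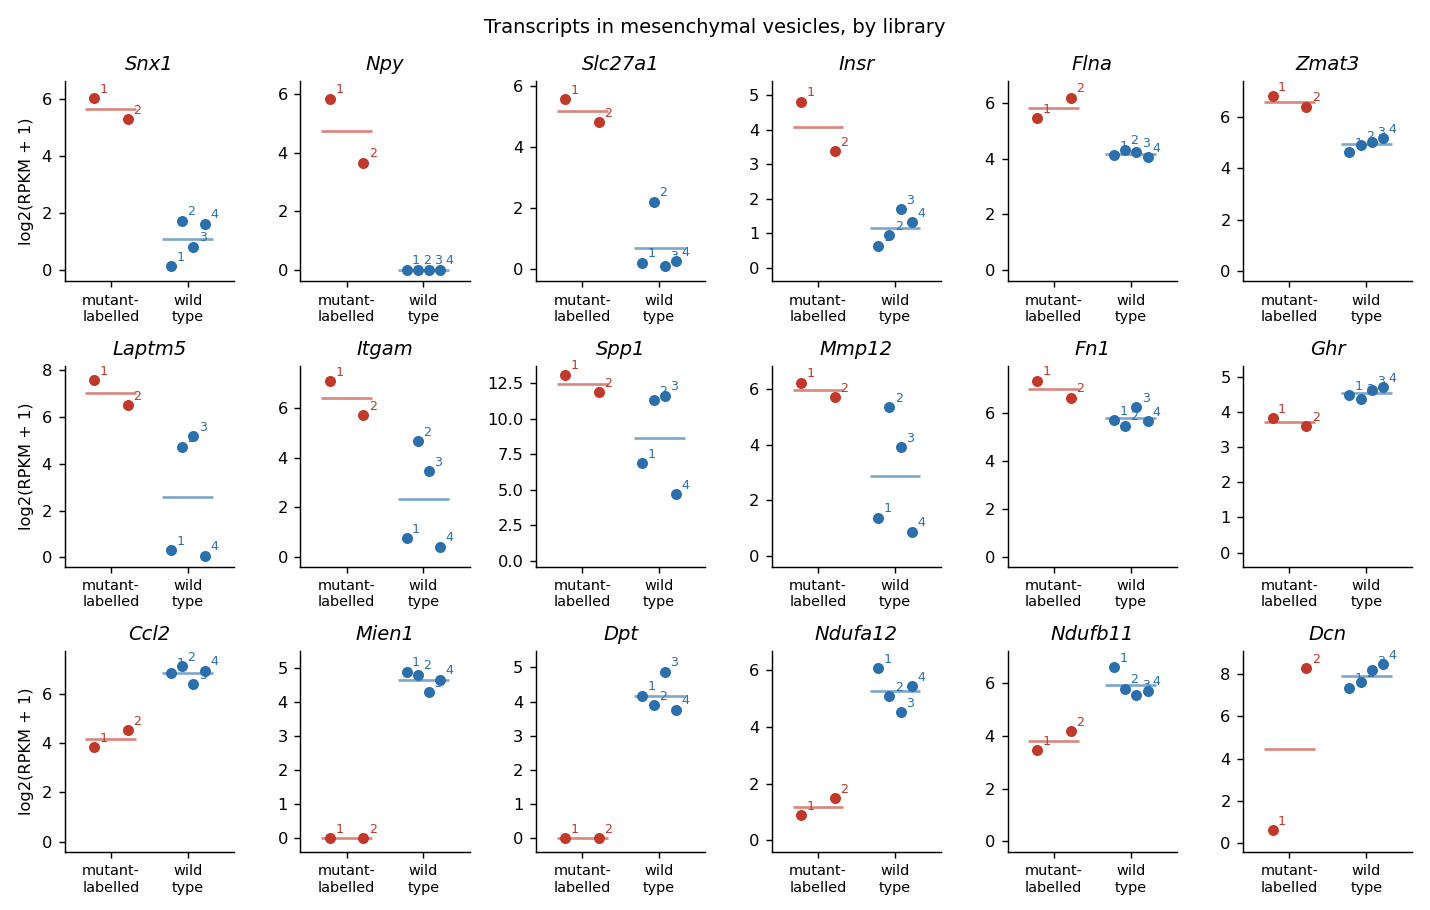
Level of 18 genes in each vesicle library, as log2(RPKM + 1) on the vertical axis; each panel is a gene, red points are the 2 mutant-labelled libraries with their numbers and blue points the 4 wild-type libraries, and horizontal bars are group means. Snx1, Npy and Slc27a1 separate the groups upward, Ccl2, Mien1 and Ndufa12 separate them downward, and in Laptm5 and Spp1 wild-type libraries 2 and 3 lie between the mutant-labelled libraries and wild-type libraries 1 and 4.

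The floxed gene of the design text stood lower in both mutant-labelled libraries. Ghr (ENSMUSG00000055737, mm9 chromosome 15, 3267760 to 3533492, minus strand) had 206 and 168 reads against 829 to 1218 reads in wild-type libraries. Much of that gap is depth, 1.745 and 1.676 M reads in genes against 4.2 to 5.406 M. Scaled for depth, Ghr stood at 12.1 ± 1.4 RPKM against 22.4 ± 2.36 RPKM (SD, n = 2 and 4). The log2 difference was -0.83, with SE 0.66 and a 95% confidence interval of -2.26 to 0.59, which did not pass (limma adjusted p = 0.627). Reads were summed over the whole gene, so a deletion of single exons would not show as an absence. Some receptors and adaptors of the insulin and IGF pathway, which growth hormone feeds into, differed more. The insulin receptor gene Insr stood at 27.0 and 9.35 RPKM in mutant-labelled libraries against 0.533, 0.913, 2.25 and 1.48 RPKM in wild-type libraries (2.95, SE 0.96). Irs1, the adaptor that insulin and IGF receptors phosphorylate, stood at 76.9 and 9.85 RPKM against 2.10, 3.80, 2.47 and 5.08 RPKM (2.79, SE 0.96). In both genes the groups did not overlap, with an unadjusted p of 0.00879 and 0.0121 and an adjusted p of 0.441 and 0.454. Igf1, the main growth factor that growth hormone induces, did not separate, at 91.6 and 68.5 RPKM against 35.0, 36.9, 91.1 and 36.3 RPKM. Its receptor gene Igf1r was uneven between the mutant-labelled libraries, at 0.128 and 14.1 RPKM against 8.36 to 19.1 RPKM. Of 14 tested genes of growth hormone and IGF signalling, 8 lay above 0, where 46.0% of all genes did. Insr and Irs1 were higher at an unadjusted p under 0.05, as were 5.23% of all genes. Ghr alone was lower with no overlap, as were 9.94% of all genes. The list median was 0.10, and 0.34 without mutant-labelled library 1.

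The genes with the smallest p in the higher direction had varied roles. Snx1, a sorting nexin that shapes endosome membranes (chromosome 9, 65935940 to 65974394, minus strand), stood at 63.9 and 38.1 RPKM in mutant-labelled libraries. The wild-type libraries stood at 0.103, 2.32, 0.768 and 2.09 RPKM (4.57, SE 0.92, interval 2.58 to 6.56, adjusted p = 0.243). Both mutant-labelled values were thus far above all wild-type ones, on 484 and 277 reads against 2 to 49. Slc27a1, a fatty acid transporter, stood at 45.9 and 27.1 RPKM against 0.160, 3.61, 0.0852 and 0.199 RPKM (4.48, SE 1). Atp6v0b, a membrane subunit of the proton pump that acidifies lysosomes, stood at 210 and 110 RPKM against 2.18, 16.6, 21.5 and 4.97 RPKM (4.04, SE 0.85). The autophagy gene Atg14 stood at 23.2 and 7.26 RPKM against 0 to 0.435 RPKM (3.61, SE 0.93). Npy, the gene of neuropeptide Y, stood at 56.7 and 11.6 RPKM against 0 in all 4 wild-type libraries. That was at least 29.9-fold higher, taking a floor of 3 reads per wild-type library, but it rests on 56 and 11 reads. Cdpf1 stood at 39.9 and 24.0 RPKM against 0 to 0.425 RPKM (4.75, SE 0.93). Fat4, an atypical cadherin of tissue growth control, stood at 116 and 36.9 RPKM against 1.82, 11.4, 1.35 and 4.69 RPKM (3.84, SE 0.91). Fut11, Arl4c, Ncapd2, Hk3 and Vars completed the set, with differences of 3.78 to 4.44 and no overlap. In each of these 12 genes the difference was 2.73 or more without mutant-labelled library 1, so both libraries carried it.

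The genes with the smallest p in the lower direction held matrix, mitochondrial and chemokine transcripts. Ccl2, the chemokine that draws monocytes (chromosome 11, 81849073 to 81850955, plus strand), stood at 13.1 and 22.1 RPKM in mutant-labelled libraries. The wild-type libraries stood at 113, 137, 82.2 and 120 RPKM (-2.64, SE 0.55, interval -3.83 to -1.45, adjusted p = 0.243). All 4 wild-type libraries were far above both mutant-labelled ones, and the difference was -2.28 without mutant-labelled library 1. Dpt, the gene of the fibroblast matrix protein dermatopontin (chromosome 1, 166726863 to 166754397, plus strand), was at 0 in both mutant-labelled libraries, against 17.1, 13.9, 28.3 and 12.6 RPKM. With 3 reads as the floor of each mutant-labelled library it was at least 17.7-fold lower. Fkbp7, a protein-folding enzyme of the endoplasmic reticulum, was also at 0 in both, against 21.6, 22.5, 7.22 and 30.6 RPKM, at least 17.4-fold lower. Mien1 was at 0 against 18.5 to 28.4 RPKM, at least 10.4-fold lower. These zeros lie outside the wild-type range in either mutant-labelled library. Mfap4, a microfibril protein of elastic tissue, stood at 0 and 11.01 RPKM against 46.2 to 58.1 RPKM (-3.90, SE 0.89). Mut, the mitochondrial methylmalonyl-CoA mutase, stood at 0.312 and 1.14 RPKM against 15.4 to 24.2 RPKM (-3.49, SE 0.81). Cfap36 stood at 4.59 and 15.7 RPKM against 56.1 to 112 RPKM (-3.16, SE 0.65). Morn4 and Mnda differed by -4.50 and -3.59. Snurf, which shares its locus with the splicing gene Snrpn so that reads may be split between them, was at 0 in both against 6.62 to 27.8 RPKM, at least 1.95-fold lower.

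Among well-expressed genes, those with a mean log2 level of 4 or more, the largest negative differences were led by mutant-labelled library 1. Dcn, the gene of the proteoglycan decorin, stood at 0.55 and 311 RPKM in mutant-labelled libraries against 164, 198, 292 and 357 RPKM in wild-type libraries. Its difference of -3.46 (SE 1.4) became 0.36 without mutant-labelled library 1, so the second library lay inside the wild-type range. The differences of Wbp5, Hsd3b6 and Ass1, of -3.26, -3.44 and -3.11, became -0.53, -0.83 and -0.80. Mutant-labelled library 2 lay inside the wild-type range for Hsd3b6 and Ass1, and below it for Wbp5, at 67.9 RPKM against 77.9 to 121 RPKM. Cdo1, a cysteine-degrading enzyme, stood at 0 and 26.5 RPKM against 37.8 to 84 RPKM, and the mitochondrial genes Tmem126a and Romo1 were also below the wild-type range in both libraries. Crabp1, a retinoic acid binding protein, went the other way between the pair, at 96.5 and 3.72 RPKM against 33.2 to 874 RPKM.

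Macrophage transcripts were higher in both mutant-labelled libraries than in the wild-type mean, while the wild-type libraries fell into high and low values. Of the 24 tested macrophage and monocyte genes, 24 had a difference above 0, where 46.0% of all genes did. An unadjusted p under 0.05 was reached by 13 of them, all higher, where 5.23% of all genes were higher at that p. With mutant-labelled library 1 left out, none of them (0) reached it. In 11 the groups did not overlap, where 9.88% of all genes were higher without overlap. The list median was 2.96, against -0.14 over all genes. Each of the 24 was listed because a group mean reached the limit above, and 5 of the 29 genes in the list were not listed. Itgam, the integrin subunit CD11b of myeloid cells, stood at 135 and 51.0 RPKM in mutant-labelled libraries, against 0.672, 24.4, 10 and 0.323 RPKM in wild-type libraries (4.08, SE 1.15, adjusted p = 0.441). Cd68, a lysosomal glycoprotein of phagocytes, stood at 275 and 203 RPKM against 0.178, 105, 101 and 9.56 RPKM (3.63, SE 1.41). Lyz2, the lysozyme of macrophages, stood at 4369 and 3191 RPKM against 140, 2415, 1977 and 20.6 RPKM (3.43, SE 1.41), where reads may be shared with its near-identical neighbour Lyz1. In all 3 genes wild-type libraries 2 and 3 came next below the mutant-labelled libraries, and wild-type libraries 1 and 4 were near 0 or far lower. The summed level of the list was 7690 and 4690 RPKM in mutant-labelled libraries, against 223, 3590, 3120 and 53.2 RPKM in wild-type libraries. Of the listed markers, 0 were at 0 in either mutant-labelled library, against 10, 1, 2 and 12 in wild-type libraries. Fewer cells of a type and less RNA per cell cannot be told apart in such bulk values.

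The complement genes C1qb and C1qc, the receptor genes Fcgr3, Mrc1 and Msr1 and the pore-forming gene Mpeg1 filled out the list. Fcgr3, an antibody receptor, stood at 104 and 19.6 RPKM against 0, 9.14, 7.82 and 0 RPKM (3.92, SE 1.20). C1qc stood at 49.9 and 22.9 RPKM against 0, 9.66, 4.93 and 0 RPKM (3.63, SE 1.13). The lowest difference was that of Csf1r, the receptor of the growth factor that macrophages need, at 5.04 and 6.72 RPKM against 0.137, 15.5, 10.6 and 0 RPKM (0.83, SE 1.27). For Csf1r wild-type libraries 2 and 3 were thus above both mutant-labelled libraries. The common leukocyte gene Ptprc was low throughout, at 2.25 and 2.18 RPKM against 0.0122 to 3.42 RPKM, and was chosen after its values were seen. The list median was 2.40 without mutant-labelled library 1 and 3.59 without mutant-labelled library 2. All 24 remained above 0 without mutant-labelled library 1. Csf1, the ligand of Csf1r, which mesenchymal cells make, was higher at 92.9 and 36.3 RPKM against 17.0 to 27.9 RPKM (1.32, SE 0.64). Neutrophil markers did not go with the macrophage genes. Of 16 listed by name 2 were in the table, and S100a8 stood at 0 and 7.74 RPKM against 0 to 18.5 RPKM.

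Laptm5, a lysosomal membrane protein of blood cells (chromosome 4, 130469040 to 130492056, plus strand), had the largest difference of the well-expressed genes. It stood at 191 and 89.8 RPKM in mutant-labelled libraries, against 0.236, 25.0, 35.0 and 0.0489 RPKM in wild-type libraries (4.48, SE 1.34, interval 1.57 to 7.39, adjusted p = 0.441). Because the macrophage genes shared an order of libraries, a promoter of the set is shown. It runs from 250 bases before to 50 bases after the start of the gene, from RefSeq on build GRCm38.p6 at chr4:130913066-130913365, plus strand.
Laptm5 promoter: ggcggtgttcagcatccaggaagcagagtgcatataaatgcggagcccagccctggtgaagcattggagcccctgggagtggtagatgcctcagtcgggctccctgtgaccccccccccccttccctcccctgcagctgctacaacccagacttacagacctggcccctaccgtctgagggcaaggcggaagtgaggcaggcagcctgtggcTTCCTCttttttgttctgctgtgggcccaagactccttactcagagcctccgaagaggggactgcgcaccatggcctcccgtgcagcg
The capitals mark TTCCTC, the reverse complement of GAGGAA, a core read by the myeloid factor PU.1. On either strand GAGGAA occurred in the promoters of 12 of the 19 macrophage genes with a promoter entry (63.2%) and in 31.3% of the 27025 genes with one. A match describes the letters and not the binding of a factor.

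Some genes of lysosomes, matrix breakdown and lipid uptake were higher in both mutant-labelled libraries. Of 26 lysosomal genes 19 lay above 0, where 46.0% of all genes did. At an unadjusted p under 0.05, 5 of the 26 were higher and 2 lower, beside 5.23% and 5.03% of all genes. The lysosomal median was 0.85, or 0.55 without mutant-labelled library 1. The lysosomal score in mutant-labelled library 2, 0.19, was below those of wild-type libraries 2 and 3, 0.23 and 0.25. The cathepsin gene Ctsb stood at 467 and 300 RPKM in mutant-labelled libraries against 46.3, 255, 220 and 16.0 RPKM in wild-type libraries (2.19, SE 0.91). Atp6v0d2, a proton pump subunit of macrophages and osteoclasts, stood at 160 and 49.9 RPKM against 9.62, 46.5, 40.1 and 0.477 RPKM (2.77, SE 1.18). In both, wild-type libraries 2 and 3 again lay closest to the mutant-labelled ones. Other cathepsins went the other way: Ctsl stood at 42.1 and 85.3 RPKM against 114 to 201 RPKM (-1.25, SE 0.53), and Ctsf was at 0 in both mutant-labelled libraries against 2.89 to 13.2 RPKM. Of 22 matrix proteases and inhibitors 16 lay above 0, and in 4 the groups did not overlap, all higher, beside 9.88% of all genes. Adam8, a membrane protease of myeloid cells, stood at 88.0 and 68.03 RPKM against 0, 2.17, 27.3 and 0 RPKM (4.67, SE 1.23). Mmp12, the macrophage elastase, stood at 74.1 and 51.5 RPKM against 1.58, 39.6, 13.9 and 0.822 RPKM (3.10, SE 1.13). Of 16 genes of fatty acid synthesis and storage 10 lay above 0, with a median of 0.53 and of 0.21 without mutant-labelled library 1. At an unadjusted p under 0.05, 5 were higher and 1 lower, beside 5.23% and 5.03% of all genes. The lower one was Scd1, the stearoyl-CoA desaturase gene, at 149 and 510 RPKM against 520 to 678 RPKM (-1.10, SE 0.50), and Fads1, another desaturase gene, was also lower without overlap. Cd36, a fatty acid receptor, stood at 27.9 and 14.6 RPKM against 0.871, 7.41, 5.90 and 0.0515 RPKM (2.70, SE 1.06). Fabp4, a fatty acid carrier of fat cells and macrophages, stood at 29.5 and 3.24 RPKM against 0 to 1.97 RPKM (2.65, SE 1.07). With the macrophage score of each library as a covariate, the difference of Mmp12 was 0.50 and that of Adam8 2.33. The score comes from the same libraries and was higher in both mutant-labelled ones, so the part of macrophage RNA was not tested.

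Spp1, the gene of osteopontin, a secreted protein of macrophages and stromal cells, was among the most abundant transcripts. It stood at 8633 and 3648 RPKM in mutant-labelled libraries against 115, 2480, 3110 and 24.9 RPKM in wild-type libraries (3.85, SE 1.48), the order of the macrophage genes. With the macrophage score as a covariate its difference was -0.45. That score comes from the same libraries and was higher in both mutant-labelled ones. The part of macrophage RNA in Spp1 was therefore not tested. Other matricellular genes separated the groups without the order of the macrophage genes. Fn1, the gene of fibronectin, stood at 162 and 99.0 RPKM against 51.3, 43.5, 74.2 and 49.7 RPKM (1.23, SE 0.54). Cyr61, a growth factor-responsive matrix protein, stood at 24.4 and 20.7 RPKM against 10.4, 0.319, 3.54 and 9.25 RPKM (2.19, SE 0.99), and Thbs1 at 83.3 and 75.6 RPKM against 28.4 to 66.4 RPKM. Of 14 tested matricellular genes 10 lay above 0, where 46.0% of all genes did. The matricellular median was 0.78, or 0.44 without mutant-labelled library 1. At an unadjusted p under 0.05, 3 of the 14 were higher and 0 lower, beside 5.23% and 5.03% of all genes. The collagens were closer to even, with a median of 0.26, or 0.32 without mutant-labelled library 1, and a range of -0.59 to 2.11 over 11 genes. Col4a2, a basement membrane chain, had the largest difference of them, at 19.5 and 7.39 RPKM against 0.607 to 4.72 RPKM.

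**Figure D2:**
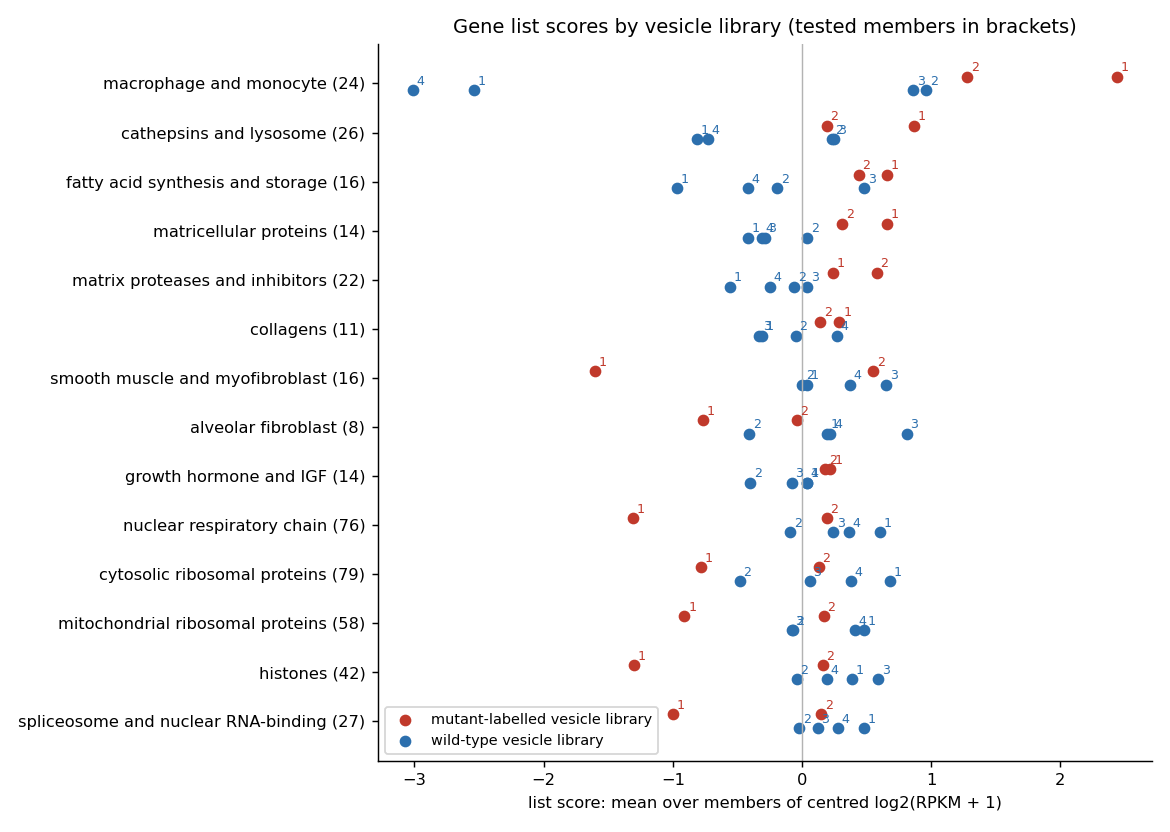
Score of 14 gene lists in each vesicle library, averaged over its tested members from log2(RPKM + 1) values centred on the gene's 6-library mean; red points are the 2 mutant-labelled libraries with their numbers and blue points the 4 wild-type libraries. For macrophage genes the mutant-labelled scores are 2.44 and 1.28 and the wild-type scores -2.54, 0.96, 0.86 and -3.01. For the respiratory chain, mitochondrial ribosomal protein, histone and spliceosome lists mutant-labelled library 1 alone lies apart. For cytosolic ribosomal proteins it is lowest at -0.78, and wild-type library 2 is next at -0.48.

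Nuclear genes of the respiratory chain were lower, in part in both mutant-labelled libraries and in part in library 1 alone. Of 76 tested genes 58 lay below 0, 12 of them at an unadjusted p under 0.05 with 0 in the other direction, where 5.03% of all genes were lower at that p. In 13 the groups did not overlap, all lower, beside 9.94% of all genes. Ndufa12, a subunit of complex I (chromosome 10, 93661700 to 93684188, plus strand), stood at 0.859 and 1.79 RPKM in mutant-labelled libraries against 66.1, 32.8, 21.96 and 42.1 RPKM in wild-type libraries. Its difference was -4.09 (SE 0.75, interval -5.71 to -2.47, adjusted p = 0.243), on 2 and 4 reads against 123 to 395. Ndufa2 was at 0 in both mutant-labelled libraries against 19.4 to 51.0 RPKM, at least 11.1-fold lower. Ndufb10 stood at 1.62 and 1.69 RPKM against 31.6, 9.50, 33.7 and 16.7 RPKM (-3.01, SE 0.82), and Ndufb11 at 10.1 and 17.1 RPKM against 46.7 to 97.6 RPKM (-2.11, SE 0.62). These 4 subunits of complex I were low in both mutant-labelled libraries. Subunits of cytochrome oxidase were lower as well, with Cox7b at 6.61 and 39.3 RPKM against 53.9 to 107 RPKM (-2.16, SE 0.70), Cox6a1 at 24.4 and 80.8 RPKM against 143 to 208 RPKM (-1.82, SE 0.57) and Cox8a at 45.2 and 104 RPKM against 130 to 369 RPKM (-1.62, SE 0.57). Other subunits of the same complexes ran the other way, as Ndufa4 at 237 and 21.4 RPKM against 3.45 to 71.3 RPKM. The list median was -0.87, but 0.10 without mutant-labelled library 1 and -1.96 without mutant-labelled library 2. Without mutant-labelled library 1, 41 of the 76 lay above 0, where 53.2% of all genes did. Without that library 14 were higher and 18 lower without overlap, beside 25.4% and 16.9% of all genes. With a length trend removed from each library the median was -0.42.

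The promoter of Ndufa11, another complex I gene that was lower in both, is shown for this set. Ndufa11 stood at 0.215 and 0 RPKM in mutant-labelled libraries against 13.4, 4.27, 2.86 and 6.33 RPKM in wild-type libraries (-2.63, SE 0.97). The sequence is from RefSeq on build GRCm38.p6 at chr17:56717512-56717811, plus strand.
Ndufa11 promoter: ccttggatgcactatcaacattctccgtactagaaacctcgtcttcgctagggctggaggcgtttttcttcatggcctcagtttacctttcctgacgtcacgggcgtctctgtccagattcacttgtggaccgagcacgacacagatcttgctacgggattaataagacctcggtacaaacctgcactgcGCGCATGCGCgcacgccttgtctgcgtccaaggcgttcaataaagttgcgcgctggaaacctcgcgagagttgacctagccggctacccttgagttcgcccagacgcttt
The capitals mark overlapping copies, one on each strand, of GCATGCGC, part of the site that NRF1 binds, a regulator of respiratory chain genes. GCATGCGC occurred on either strand in 10 of the 62 respiratory chain genes with a promoter entry (16.1%) and in 3.05% of all genes with one.

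Transcripts of mitochondrial DNA lay mostly slightly below 0. Of 13 genes 11 did, with a median of -0.24, and without mutant-labelled library 1 none (0) lay above 0 and the median was -0.52. The median turned to 0.22 without mutant-labelled library 2, and to 0.32 with a length trend removed from each library. These transcripts took 11.6% and 5.48% of reads in mutant-labelled libraries and 5.5% to 18.1% in wild-type libraries. The oxidase subunit mt-Co1 stood at 38230 and 15630 RPKM against 17040 to 62280 RPKM, and mt-Co3 at 890.2 and 849.8 RPKM against 1178, 4354, 2460 and 1140 RPKM (-1.16, SE 0.52). In 3 of the 13 genes the groups did not overlap, all lower, beside 9.94% of all genes. Gm20594 and Lars2, which share reads with mitochondrial ribosomal RNA, took 5.87% and 5.09% of reads against 4.72% to 7.07%.

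Transcripts of the protein-making machinery leaned low, mainly in mutant-labelled library 1. Of 79 cytosolic ribosomal protein genes 70 lay below 0, with a median of -0.43 that became -0.03 without that library. Their score was lowest in mutant-labelled library 1, at -0.78, and wild-type library 2 was next, at -0.48. Rpl36 stood at 92.2 and 322 RPKM in mutant-labelled libraries against 328 to 670 RPKM in wild-type libraries (-1.42, SE 0.54), and Rps21 at 13.9 and 321 RPKM against 246 to 391 RPKM (-2.18, SE 0.88). Of 58 mitochondrial ribosomal protein genes 41 lay below 0, with a median of -0.59 that became -0.01. Mrps16 was low in both mutant-labelled libraries, at 2.02 and 0 RPKM against 22.1, 6.82, 34.9 and 12.4 RPKM (-3.30, SE 0.94). Of 42 histone genes 32 lay below 0, with 7 lower and without overlap beside 9.94% of all genes, and their median of -0.92 became -0.06. Without mutant-labelled library 1, 11 were higher and 13 lower without overlap, beside 25.4% and 16.9% of all genes. The linker histone gene Hist1h1c was low in both, at 0 and 0.382 RPKM against 7.73, 12.5, 12.1 and 6.403 RPKM (-3.14, SE 0.91), while Hist1h2bc stood at 2.34 and 77.0 RPKM against 58.2 to 96.5 RPKM. Reads of near-identical histone genes may be split between copies. Translation factors (median -0.50) and splicing factors (-0.72) had medians of -0.19 and 0.02 without mutant-labelled library 1. The splicing factor gene Srsf2 stood at 0.606 and 8.83 RPKM against 53.01, 27.8, 45.0 and 11.3 RPKM (-2.95, SE 0.91). Of 35 proteasome genes 21 lay below 0, with a median of -0.37, but without mutant-labelled library 1 23 lay above 0, with a median of 0.27. Psma1, a core subunit, stood at 0 and 0.289 RPKM against 6.58 to 13.99 RPKM (-3.17, SE 0.91).

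**Figure D3:**
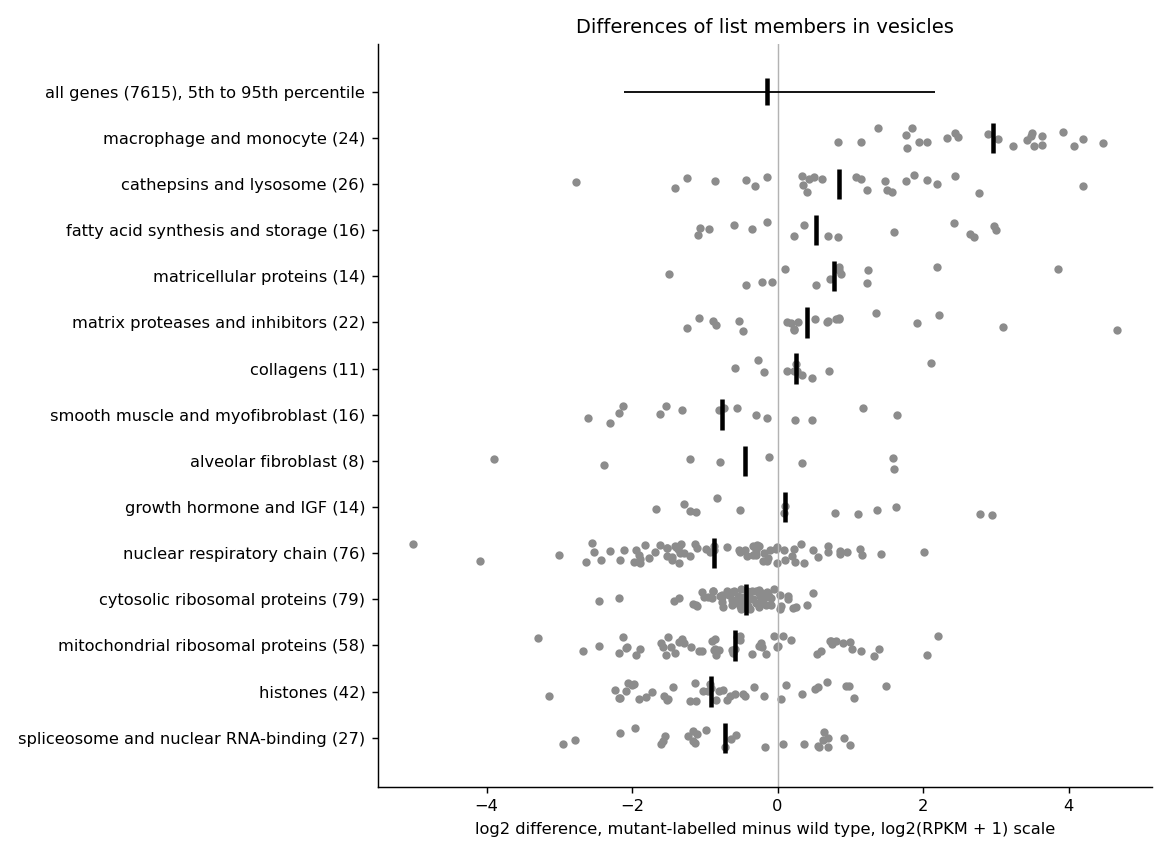
Log2 difference, mutant-labelled minus wild type, of every tested member of 14 gene lists (grey points) with the list median (black bar), and in the top row the median and the range from the 5th to the 95th percentile of all 7615 genes. All 24 macrophage genes lie to the right of 0, and the respiratory chain list reaches -5.01 on the left.

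Exon length went with the difference over all genes. In 5 classes of 1523 genes by exon length, the median difference was -0.55 in the shortest (up to 1978 bases), then -0.41, -0.19 and 0.08, and 0.37 in the longest (from 6813 bases). At an unadjusted p under 0.05 the shortest class held 55 higher and 153 lower genes and the longest 116 higher and 8 lower. Mutant-labelled library 1 had the steepest order, from a median centred level of -1.02 in the shortest class to 0.27 in the longest. Mutant-labelled library 2 was level, at 0.11 to 0.18. Wild-type libraries 1, 3 and 4 sloped the other way, from 0.43 to -0.31, from 0.25 to -0.05 and from 0.29 to -0.08. Wild-type library 2 stood at -0.29 in the shortest class and -0.09 in the longest. In mutant-labelled library 1, 33.6% of the shortest genes were at 0, against 13.8% in mutant-labelled library 2 and 7.42% to 12.5% in wild-type libraries. In lung the class medians ran from 0.05 to -0.02. Thinned to 1661078 reads each, mutant-labelled library 1 had 6286 genes above 0 and mutant-labelled library 2 had 7309. Wild-type libraries then had 7043 to 7305. The part of length, of RNA quality or of shallow depth in the list differences above was not tested. Removing a length trend from each library left class medians of -0.15 to -0.02. It left the macrophage median at 3.12, the ribosomal protein median at -0.04 and the histone median at -0.33.

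**Figure D4:**
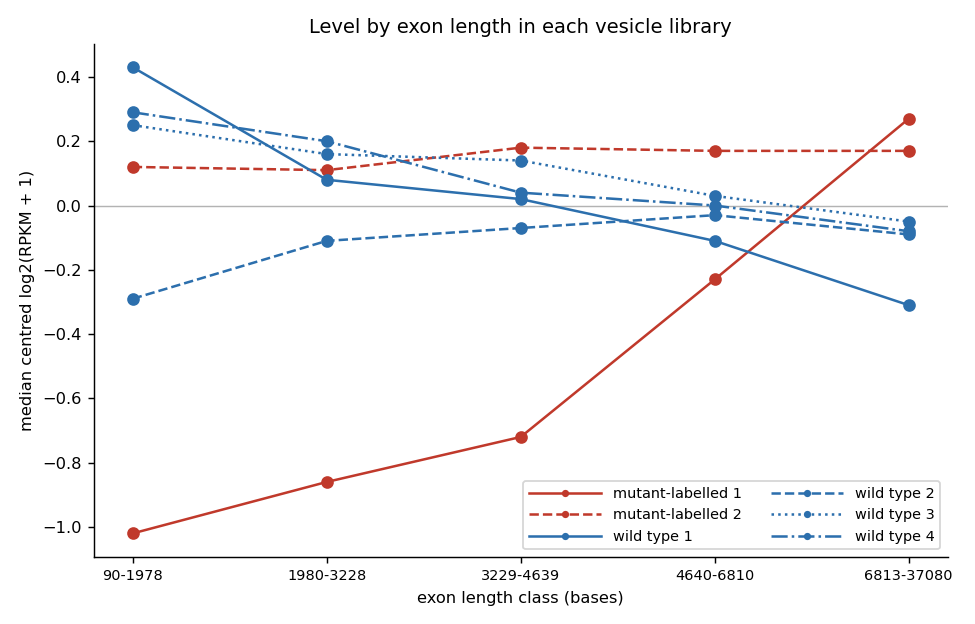
Median centred level, log2(RPKM + 1) centred on the gene's 6-library mean, in 5 classes of 1523 genes from the shortest to the longest exon length; red lines are the 2 mutant-labelled libraries and blue lines the 4 wild-type libraries. Mutant-labelled library 1 climbs from -1.02 to 0.27, and the other libraries stay between -0.31 and 0.43.

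Fibroblast and muscle genes split by library. Of 16 smooth muscle and myofibroblast genes 12 lay below 0, with a median of -0.77 that became 0.16 without mutant-labelled library 1. Myh11, the smooth muscle myosin, stood at 0.778 and 47.8 RPKM in mutant-labelled libraries against 29.9 to 79.8 RPKM in wild-type libraries. Tagln, the actin-binding protein transgelin, stood at 27.1 and 329 RPKM against 162 to 418 RPKM. Mutant-labelled library 2 was inside the wild-type range for both. Flna, the actin cross-linker filamin A, was higher in both mutant-labelled libraries, at 42.7 and 71.4 RPKM against 16.4, 18.9, 17.8 and 15.5 RPKM (1.64, SE 0.63). Macf1, a long cytoskeletal linker that marks alveolar fibroblasts, stood at 51.9 and 48.7 RPKM against 13.5, 9.88, 21.8 and 22.4 RPKM (1.59, SE 0.66). Over the 8 tested alveolar fibroblast genes, Macf1 among them, 5 lay below 0 and the median was -0.45, or -0.46 without mutant-labelled library 1. Fgf10, the growth factor that drives branching of the lung epithelium, stood at 0.374 and 0 RPKM against 9.17, 2.24, 7.76 and 3.86 RPKM (-2.38, SE 0.97). Fgf10 was thus below every wild-type library in both. Fgf2, a growth factor of fibroblasts and endothelium, was low in library 1 alone, at 1.91 and 55.4 RPKM against 33.7 to 86.7 RPKM. Adventitial fibroblast genes had a median of -0.57 over 8 genes, led by Dpt, or -0.70 without mutant-labelled library 1.

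Signals of the mesenchyme varied gene by gene. Bmp4, a BMP ligand, stood at 6.44 and 36.2 RPKM in mutant-labelled libraries against 4.01, 1.25, 0.75 and 0.499 RPKM in wild-type libraries (2.83, SE 1.04). The groups did not overlap for Bmp4, and the transducer Smad3 was higher at 12.2 and 2.04 RPKM against 0.367 to 1.04 RPKM. The TGF-beta ligand gene Tgfb3 stood at 60.6 and 84.4 RPKM against 120 to 128 RPKM (-0.80, SE 0.48). Of 21 genes of BMP and TGF-beta signalling 11 lay above 0, with a median of 0.59, or 0.52 without mutant-labelled library 1. Among Wnt genes the coreceptor gene Lrp6 was higher at 24.5 and 14.8 RPKM against 2.28 to 9.16 RPKM (1.77, SE 0.84), and the antagonist Dkk2 was uneven at 0.155 and 59.7 RPKM against 26.4 to 81.4 RPKM. The FGF feedback inhibitor Spry2 stood at 0 and 0.286 RPKM against 1.28 to 11 RPKM. Among transcription factors of lung mesenchyme Gata6 was higher at 3.41 and 1.87 RPKM against 0 to 1.01 RPKM, and Tbx5 stood at 0 and 4.72 RPKM against 1.10 to 36.6 RPKM.

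Immune and stress genes outside the macrophage list gave mixed directions. The class I genes H2-D1 and H2-K1, which present peptides to T cells and may share reads, were higher. H2-D1 stood at 85.2 and 134 RPKM in mutant-labelled libraries against 19.1 to 61.0 RPKM in wild-type libraries (1.53, SE 0.62), and H2-K1 at 48.8 and 42.2 RPKM against 5.96 to 20.1 RPKM (1.68, SE 0.71). Interferon-induced genes had a median of -0.48 over 22 genes, and 0.25 without mutant-labelled library 1. Zmat3, a p53 target, stood at 110 and 83.2 RPKM against 23.8, 28.6, 31.8 and 35.1 RPKM (1.66, SE 0.56), and the cell cycle inhibitor Cdkn2b at 0.411 and 0 RPKM against 4.65, 32.0, 30.9 and 1.46 RPKM (-3.21, SE 1.18). Both separated the groups. The 14 p53 and senescence genes, these among them, had a median of -0.55, or 0.12 without mutant-labelled library 1. Of the stress genes of the endoplasmic reticulum, the factor Xbp1 was higher at 15.5 and 29.8 RPKM against 0.0765 to 9.18 RPKM (2.61, SE 1.03). Asns, the asparagine synthetase gene, was lower at 0 and 2.87 RPKM against 8.98 to 35.1 RPKM (-3.24, SE 0.91). The cell cycle genes pointed both ways, with the reductase gene Rrm1 higher (2.80, SE 0.96), the cyclin gene Ccna2 lower (-2.38, SE 0.93) and a median of -0.08 over 18 genes. Glycolytic genes had a median of -0.11 and 0 without overlap among 18, beside 9.88% of all genes higher and 9.94% lower. Cholesterol synthesis genes had a median of 0.04 over 19. These medians were 0.12, 0.36 and 0.60 without mutant-labelled library 1.

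Genes of vesicle formation lay on both sides of 0. Of 21 tested genes 12 lay above 0, with a median of 0.22. The median was 0.78 without mutant-labelled library 1, with 15 above 0, and -0.51 without mutant-labelled library 2. The tetraspanin gene Cd63 stood at 92.3 and 204 RPKM in mutant-labelled libraries against 47.6 to 175 RPKM in wild-type libraries, and Cd81 at 35.8 and 147 RPKM against 55.3 to 157 RPKM, so both overlapped. Cd63 and Cd81 were chosen after their values were seen. Of the budding machinery Pdcd6ip, the gene of ALIX, was higher at 86.1 and 25.1 RPKM against 8.80, 7.11, 18.04 and 17.5 RPKM (1.88, SE 0.76), and Chmp2a at 97.0 and 50.2 RPKM against 16.2 to 34.3 RPKM (1.5, SE 0.64). Chmp4b, of the same machinery, went the other way and was lower without overlap (-1.66). Of the 21 genes, 2 were higher and 1 lower without overlap, beside 9.88% and 9.94% of all genes. The membrane scaffold gene Flot2 was uneven, at 0.209 and 23.1 RPKM against 18.1 to 43.9 RPKM.

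Whole lungs of the same labels showed far smaller differences. Lung tables were normalized separately, so the difference between lung and vesicles was not tested. Of 7413 genes tested in both, the log2 differences correlated at 0.04 (Spearman) and 0.08 (Pearson), a description over genes that share libraries. Of the 738 genes higher without overlap in vesicles, 43 were higher and 33 lower without overlap in lung, and of the 745 lower in vesicles 33 were lower and 45 higher in lung. limma called 0 of the 13701 genes tested in lung (0%), with 514 at an unadjusted p under 0.05, 2.54% of the genes higher and 1.21% lower. The groups did not overlap in 7.5% that were higher and in 4.12% that were lower, and 55.7% lay above 0. Differences in lung were small beside those in vesicles, with a median SE of 0.09. Snx1 had 15.5 and 17.6 RPKM in mutant-labelled lungs and 15.6 to 17.0 RPKM in wild-type lungs, and Dpt, at 0 in mutant-labelled vesicles, at 63.8 and 72.6 RPKM against 64.2 to 87.3 RPKM. Ccl2 was near 1 RPKM in lung, at 1.79 and 0.878 RPKM against 0.698 to 1.12 RPKM. The macrophage list had a median of 0.36 in lung, where Cd68 stood at 50.03 and 23.7 RPKM against 16.9, 17.2, 54.5 and 16.9 RPKM and Itgam at 5.86 and 8.90 RPKM against 4.68 to 4.94 RPKM.

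**Figure D5:**
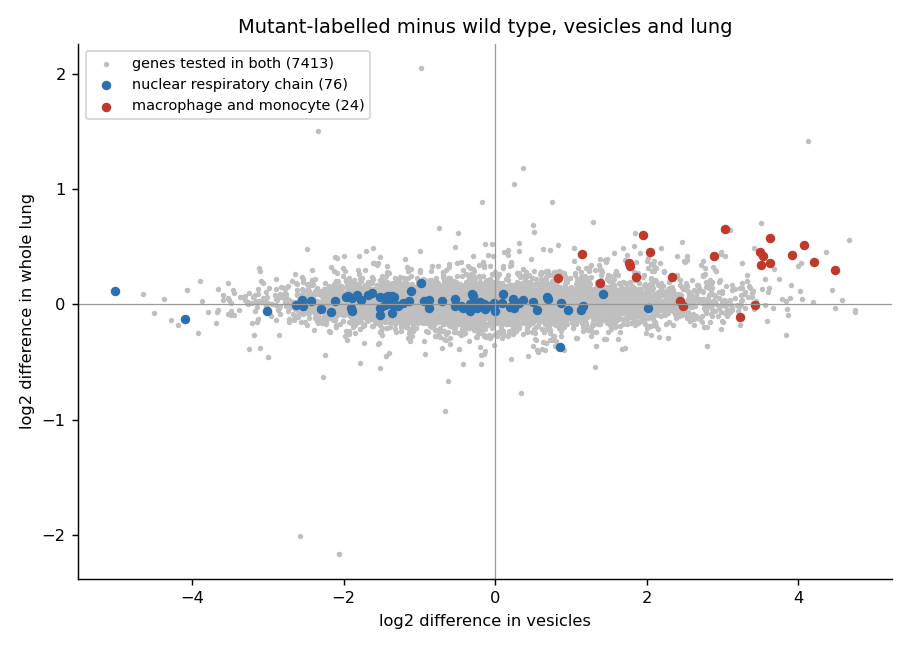
Log2 difference, mutant-labelled minus wild type, in vesicles (horizontal axis) and in whole lung (vertical axis) of the 7413 genes tested in both (grey), with the macrophage genes in red and the nuclear respiratory chain genes in blue. The vesicle differences spread over several log2 units and those of lung stay close to 0, with a Spearman correlation of 0.04.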

How the data were processed

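RNA-seq was measured in 6 libraries of vesicle RNA (2 mutant-labelled, 4 wild-type) and in 6 of whole lung. The submitters' processing notes name TopHat2, HTSeq and build mm9. For versions, strand and annotation the sources used here give nothing. The deposited values were read as RPKM, normalized by the authors, from the values themselves. The unit is not named in the files. Under it, annotated exon lengths gave whole reads (tolerance 0.002 reads) in 45.85% to 46.23% of detected genes, by vesicle library. Over all vesicle libraries together they did so for 3657 genes. For 4439 genes a length was fitted so that reads came out whole, so wholeness cannot bear on the unit there. Exon lengths used above are these annotated or fitted ones. Recovered reads summed to 98.9% to 99.6% of the depth inferred for each vesicle library. For vesicles, 15 symbols that a spreadsheet had turned into dates were restored, and no other value columns (0) were present.

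Genes that reached 1 RPKM in at least 2 of 6 libraries were fitted with limma 3.58.1 (R 4.3.3; trended prior, 2-sided, Benjamini-Hochberg over all genes tested), on log2(RPKM + 1), each table alone. Intervals are 95% intervals. A fold at least is against 3 reads per library at 0, and covers counting error only. Depth ranges from 1.676 to 5.406 M reads in vesicles and from 42.693 to 44.804 M in lung, so low genes are less precise in vesicles.

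Members and lists were chosen with earlier results of these data known. Named genes are the genes of the labels, the 12 with the smallest p in each direction, the 12 largest differences among genes whose mean log2 level is 4 or more, the 10 most abundant, and up to 4 members of each list by p, with cell markers. Outside this rule, Vim, Grem1, Sparc, Igf1, C1qb, Mrc1, Msr1, Mpeg1, Csf1r, Atp6v0d2, Thbs1, Cox6a1, Cox7b, Cox8a, Ndufa4, Ndufa11, Tgfb3, Scd1 and Fads1 are list members or abundant genes chosen after their values were seen. Coordinates are from GENCODE M1 on mm9, and promoters from RefSeq on GRCm38.p6. Alternatives were other pseudocounts (0.1 and 5), filters, scalings, weights and covariates, the replicate block, recovered reads, thinning to 1661078 reads, a length trend and leaving out each library. Fits were tested on simulated data.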

Additional observations from a re-analysis of the deposited data

Results flagged for a closer look

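In 182 groups of 4 wild-type vesicle libraries looked at (140 genes and 42 lists), 7 genes had 1 library far from the others, and chance alone gives about 1 in 20 such groups (5%). Slc27a1 was at 3.61 RPKM in wild-type library 2, far above the others and still below both mutant-labelled libraries. Igf1 was at 91.1 RPKM in wild-type library 3, level with mutant-labelled library 1. Hspa1a, a heat shock protein gene, was at 3.11 RPKM in wild-type library 2. Rgs5, a pericyte marker, was at 3.88 RPKM in wild-type library 1, and the stress gene Herpud1 at 3.49 RPKM in wild-type library 4. Ncapd2, a condensin subunit gene, was at 0.278 RPKM in wild-type library 4, above the others, and Cdo1 was at 37.8 RPKM in wild-type library 4, below the others.

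In 3 genes every mutant-labelled library lay on one side of the wild-type libraries in vesicles and on the other side in lung. Thbs1, the thrombospondin 1 gene, had a log2 difference of 0.87 in vesicles and -0.23 in lung. The ribosomal protein gene Rpl36 differed by -1.42 in vesicles and 0.16 in lung, and the proteasome gene Psma1 by -3.17 in vesicles and 0.08 in lung. The difference between vesicles and lung was not tested for any of them.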

How the results depend on the processing

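limma called 0 of the vesicle genes under every alternative but a pair. The limma-voom test on recovered reads called 1 (Fat4), and leaving out libraries gave 0 to 253, where the 253 came without mutant-labelled library 2. In lung the count was 0 throughout. At an unadjusted p under 0.05 the 781 genes became 362 with array weights, 341 with the macrophage score as a covariate and 328 with the replicate block. Leaving out libraries gave 496 to 1791, with 496 without mutant-labelled library 1, 1791 without mutant-labelled library 2 and 507 without wild-type library 1.

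Replicate numbers are shared by the groups but no label pairs them, and deviations of same-numbered libraries correlated at -0.05 and -0.12. Under the block Tbx5 was at 0.03, Col1a1 at -0.20, Lars2 at -0.11 and Cd81 at 0.39, each of the opposite sign.

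Of 2792 values compared for 140 named genes, 53 were of the opposite sign or 0, and 104 genes kept their sign under every alternative run. With the macrophage score as a covariate those that turned were Spp1 (-0.45), Lyz2 (-0.56), Lyz1 (-0.35), C1qb (-2), Msr1 (-1.63), Mpeg1 (-0.22), Csf1r (-1.79), Ptprc (-0.66), Ctsb (-0.15), Atp6v0d2 (-0.04) and Lars2 (-0.23). The score is the mean over the macrophage list, so the adjusted differences of list members average 0 by construction. Lyz2, Lyz1, C1qb, Msr1, Mpeg1 and Csf1r are members, so their turns are no test of them. For genes outside the list the score still comes from the same libraries. It was 2.44 and 1.28 in mutant-labelled libraries against -2.54, 0.96, 0.86 and -3.01 in wild-type libraries. The part of macrophage RNA in those genes was not tested. With Y-linked transcripts as a covariate Eif2s3y was at 0.11 and Vim at 0.10. With the length trend removed Col1a1 was at -0.08, Pdpn at 0.29, mt-Co1 at 0.17, Gm20594 at 0.54 and Cd81 at 0.24. Pdpn was at 0.09 by limma-voom and at 0 with array weights, and mt-Co1 and Gm20594 were at 0 after quantile normalization.

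Over all single leave-outs, 19 genes turned without mutant-labelled library 1. Col1a1, mt-Co1 and Cd63 kept their sign there and turned in another leave-out. Dcn ranged from -7.29 to 0.36, Dkk2 from -5.42 to 0.30, Myh11 from -4.69 to 0.08, Hist1h2bc from -4.50 to 0.04 and Rps21 from -4.40 to 0.03. Aldh1a2 ranged from -4.41 to 0.23, Igf1r from -3.54 to 0.20, Tagln from -3.39 to 0.16, Itgb1 from -2.78 to 0.16 and Grem1 from -2.66 to 0.39. S100a8 ranged from -2.55 to 0.58, Hspd1 from -2.41 to 0.20, Acta2 from -2.19 to 0.72, Cd81 from -1.06 to 0.94 and Sparc from -0.98 to 0.11. mt-Co1 ranged from -0.90 to 0.39, Postn from -0.74 to 3.22, Pdpn from -0.67 to 0.48, Rgs5 from -0.59 to 4.93 and Col1a1 from -0.50 to 0.76. Cd63 ranged from -0.14 to 1 and Lars2 from -0.07 to 0.20.

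Of 840 list medians compared, 687 moved by less than the spread between libraries, 85 were of the opposite sign, and 18 of the 42 lists turned without mutant-labelled library 1. The causes were not tested. With equal depth by thinning limma called 0 genes, and 750 were at an unadjusted p under 0.05 against 781. With 2 mutant-labelled libraries of low depth, of which 1 stands apart, differences in low genes may have been missed.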

Other observations

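Transcripts of translation, ribosome assembly and iron storage were among the most abundant nuclear messages in vesicles. Eef1a1, a translation elongation factor gene, stood at 3885 and 6310 RPKM in mutant-labelled libraries against 5468 to 9244 RPKM in wild-type libraries (-0.52, SE 0.36). Npm1, the gene of the nucleolar protein nucleophosmin, stood at 2971 and 5891 RPKM against 5616 to 9298 RPKM (-0.83, SE 0.38, unadjusted p = 0.0464, which did not pass limma's adjustment), and Fth1, the ferritin heavy chain gene, at 7287 and 4691 RPKM against 3183 to 6555 RPKM (0.49, SE 0.38). B2m, the light chain of class I molecules, stood at 2137 and 1696 RPKM against 960.8 to 1714 RPKM (0.52, SE 0.38). All 4 genes overlapped between the groups.

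Adhesion and matrix genes varied gene by gene. Of 15 tested integrin and laminin genes, 3 were higher and 1 lower without overlap, beside 9.88% and 9.94% of all genes. Of the 15, 11 lay above 0, with a median of 0.78 that became 0.30 without mutant-labelled library 1. Lamc1, a laminin chain of basement membranes, stood at 12.7 and 7.499 RPKM in mutant-labelled libraries against 0.486, 4.10, 2.45 and 1.25 RPKM in wild-type libraries (1.96, SE 0.97). The integrin gene Itgb3 stood at 9.13 and 2.43 RPKM against 0.530, 1.38, 0.0403 and 0.533 RPKM (1.92, SE 0.93). Itgb1, the common beta chain, was uneven at 20.5 and 163 RPKM against 97.5 to 227 RPKM. Of 20 genes of elastic fibres and proteoglycans 10 lay on each side of 0, with a median of 0.04, or 0.37 without mutant-labelled library 1. Ltbp2, which binds elastic microfibrils, stood at 7.35 and 10.3 RPKM against 1.39 to 5.24 RPKM (1.53, SE 0.94). Fmod, a collagen-binding proteoglycan gene, was at 0 in both mutant-labelled libraries, against 14.4, 0, 3.13 and 5.28 RPKM in wild-type libraries.

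Minor cell types gave few genes. The 4 tested pericyte genes lay above 0 with a median of 1.05 that became 0.02 without mutant-labelled library 1, where Rgs5 stood at 44.9 and 0 RPKM and Postn at 43.4 and 1.85 RPKM. Of 4 mesothelial genes 2 lay above 0, with a median of 0.23, or -0.39 without mutant-labelled library 1, and Aldh1a2, an enzyme of retinoic acid synthesis, stood at 0 and 24.0 RPKM against 5.03 to 51.0 RPKM. Of the 3 endothelial genes Ece1, the endothelin-converting enzyme gene that other cells use as well, stood at 13.2 and 15.0 RPKM against 0.171, 0.946, 1.42 and 2.48 RPKM (2.85, SE 0.95). Ramp2, a receptor-associated protein gene, stood at 0 and 6.91 RPKM against 2.66 to 34.5 RPKM.

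Stress and early response genes showed no shared direction. Of 15 chemokine and cytokine genes 7 lay above 0, with a median of -0.02, and of 13 immediate early genes 8, with a median of 0.50. Without mutant-labelled library 1 these medians were 0.38 and -0.03. Zfp36, which destabilizes inflammatory messages, stood at 1.28 and 6.32 RPKM in mutant-labelled libraries against 6.09 to 57.7 RPKM in wild-type libraries (-2.12, SE 0.96), and Fosl1 at 75.9 and 7.69 RPKM against 0.9752 to 11.6 RPKM (2.21, SE 1.05). Of 23 chaperone genes 15 lay below 0, with a median of -0.12, or 0.18 without mutant-labelled library 1. The mitochondrial chaperone gene Hspd1 stood at 62.4 and 387.5 RPKM against 221.5 to 496.6 RPKM and its partner Hspe1 at 69.97 and 163.9 RPKM against 159.5 to 429.1 RPKM. Of 55 translation factor genes 44 lay below 0, and Eif2a stood at 4.68 and 24.9 RPKM against 32.6 to 53.9 RPKM (-1.76, SE 0.73).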
